A study of Mus musculus with 6 samples.

Results

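Mamdc2, 2610203C22Rik, Cd163, F13a1, Lyve1, Timd4, Folr2 and Ccr2 are 8 of the 33696 genes counted in single nuclei of mouse left ventricle. They were picked by symbol, and they are described here mainly in the nuclei of cardiac macrophages, which were taken from the deposited counts by a gate. A nucleus passed the gate with at least 2 unique molecular identifiers (UMIs, counted RNA molecules) of Csf1r, Adgre1 and Mrc1 together, at most 1 UMI of Pdgfra, Cdh5 and Rgs5 together, and less than 1% of its UMIs in the cardiomyocyte genes Ttn, Ryr2 and Myh6. The gate held 2431 of 46005 nuclei. The genes were chosen with their levels in these same libraries and groups in view, so their differences between groups, and any threshold they passed in a fit over all genes, are a description and no independent test.

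The study set untreated hypertrophic cardiomyopathy against treatment with empagliflozin, an inhibitor of the sodium-glucose cotransporter SGLT2. The WT-CD group was wild-type on control diet. The R403Q-CD group had 1 mutant allele of the cardiac myosin heavy chain gene (Myh6+/R404Q, called R403Q) on control diet. The R403Q-EMPA group had that allele and ate control diet with 0.15 mg empagliflozin per g, a dose of 15 mg/kg. Males were used, started on their diet when 9 to 10 weeks old, and the sampled age was 12 weeks. Each group had 2 libraries, from nuclei of 50 mg frozen tissue, and between 31787308 and 45397128 UMIs were counted per library. The sources used here do not say that the 2 libraries came from separate animals, so every p-value measures only the spread between these samples. No wild-type group on empagliflozin was analysed here.

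Resident cardiac macrophages are seeded early in life, renew themselves in the heart and clear dying cells, debris and material shed by cardiomyocytes. Their surface carries scavenger and adhesion receptors such as CD163, LYVE1, TIM-4 and the folate receptor beta, while macrophages that come from blood monocytes carry the chemokine receptor CCR2 and present more antigen. The resident state is lost or replaced in part when the heart is injured or overloaded, and for that reason these genes are used together to tell both populations apart.

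The gate was checked against the clusters of all nuclei. Of the gated nuclei, 2133 fell in a myeloid-like cluster with F13a1, Cd163 and Adgre1 among its leading genes, and 76 in a second myeloid-like cluster with Ccr2 among its leading genes. A further 133 fell in the lymphatic endothelial-like cluster, between 11 and 39 per library, and entered through Mrc1. In those 133 nuclei Csf1r had no UMI and Adgre1 had 3, while Lyve1 reached 918 CPM (counts of a gene scaled to 1e6 UMIs of the nuclei considered, here the mean of the 6 libraries). Cd163, Timd4, Folr2 and Ccr2 had no UMI there. Values without these nuclei are given beside Lyve1 below.

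WT-CD libraries had 643 and 316 gated nuclei, R403Q-CD libraries 441 and 352, and R403Q-EMPA libraries 415 and 264, with median UMI counts per nucleus from 2498 to 4061.5. As a share of all nuclei that is 6.76% and 4.15%, 5.83% and 5.06%, and 5.23% and 4.12%. The groups overlapped, and no difference was detectable (two-sided exact permutation p = 1.0 for R403Q-CD against WT-CD and 0.667 for both comparisons with R403Q-EMPA, where 0.333 is the smallest p that 2 against 2 libraries allow). Pairs of libraries shared 23 to 56 barcodes, at most 0.489% of the smaller library. Near the threshold, 17 to 43 nuclei per library had exactly 2 UMIs of the gate genes and entered, and 69 to 231 had 1 and did not.

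The gate selected nuclei on Csf1r, Adgre1 and Mrc1, so their levels are given as a description. Csf1r, the receptor for the growth factor on which macrophages depend, ranged from 623 to 734 CPM over the 6 libraries, and Adgre1, which encodes the F4/80 antigen, from 632 to 702 CPM. Mrc1, the mannose receptor, ranged from 2263 to 3432 CPM, with a mean of 3150 CPM for WT-CD, 2808 CPM for R403Q-CD and 2522 CPM for R403Q-EMPA. Both WT-CD libraries lay above the other 4, and the mutant groups overlapped. At 1000 UMIs per nucleus it was found in 69.8% of gated nuclei in R403Q-EMPA replicate 1 and in 78.6% to 87.7% in the other libraries. None of the 3 was called in any comparison.

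Mamdc2, which encodes a secreted matrix protein with MAM domains, was low in macrophage nuclei and lower in both mutant groups. Its level was 40.0 and 28.5 CPM in the WT-CD libraries, 3.78 and 4.73 CPM in R403Q-CD, then 4.70 and 5.87 CPM in R403Q-EMPA. Both wild-type libraries stood above all 4 mutant libraries, and the R403Q-CD and R403Q-EMPA values interleaved. Behind these levels lay 69 and 34 UMIs in WT-CD and between 4 and 7 UMIs in each mutant library. The log2 fold change was -3.02 ± 0.387 (SE) for R403Q-CD against WT-CD, 0.24 ± 0.542 for R403Q-EMPA against R403Q-CD, and -2.79 ± 0.409 for R403Q-EMPA against WT-CD.

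Few nuclei carried the Mamdc2 transcript. A UMI was found in 25 of 643 and 14 of 316 WT-CD nuclei, or 3.89% (95% Wilson interval 2.65 to 5.68%) and 4.43%, against 1.13% to 1.45% in the mutant libraries. These intervals cover counting error only. A single WT-CD nucleus held 17 of the 69 UMIs of its library, and 11 nuclei of that library held at least 2. With every nucleus thinned to 1000 UMIs the shares were 1.58% and 1.90% in WT-CD and 0.230% to 0.385% in the mutant libraries, where each share is 1 nucleus. Thinned to 500 UMIs, WT-CD replicate 2 had 1 positive nucleus (0.316%) and R403Q-EMPA replicate 1 had 3 (0.723%), so the groups overlapped and no difference in the share is read from thinned nuclei. Cardiomyocyte-like nuclei, which should lack a macrophage transcript, gave 0.0625% to 0.411% at 1000 UMIs, and the mutant shares at 1000 UMIs lie within that background.

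The level of Mamdc2 was highest in smooth muscle-like nuclei. Gated macrophage nuclei held 1.73% of its UMIs. In smooth muscle-like nuclei the level was between 570 and 873 CPM in the 6 libraries, with no order by group. Pericyte-like nuclei stood at 48.0 to 169 CPM, endocardial-like nuclei at 45.9 to 128 CPM, and fibroblast-like nuclei at 47.1 to 66.8 CPM. In the 57 gated nuclei with a Mamdc2 UMI the smooth muscle markers had no UMI in any library. In gated nuclei without one they averaged only 7.79 CPM, so 57 nuclei could hold none through low counts alone. Nothing is read from that absence. The summed pericyte markers were higher in the 57 nuclei than in the other gated nuclei in 3 of 6 libraries. Antigen presentation genes were lower in the 57 nuclei in 6 of 6 libraries, at a mean of 1175 against 2148 CPM. Each mutant library had only 3 to 6 such nuclei.

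**Figure D1:**
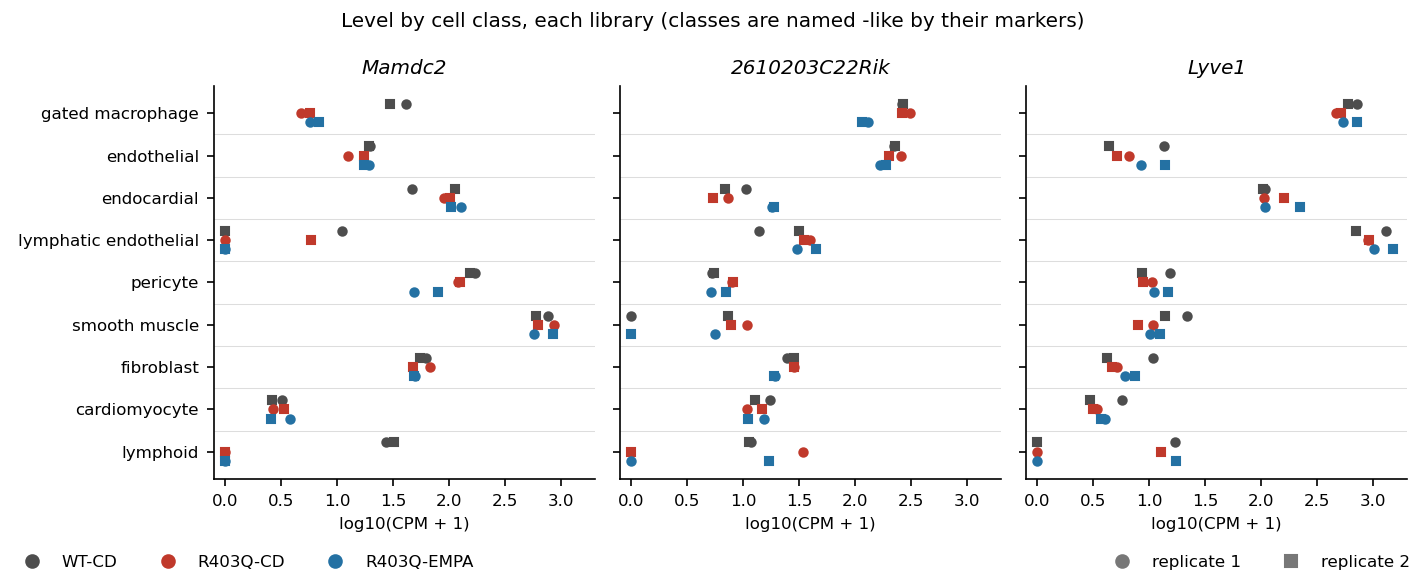
Level of Mamdc2, 2610203C22Rik and Lyve1 in each cell class, as log10(CPM + 1), with 1 point per library (2 per group, circles for replicate 1 and squares for replicate 2). In gated macrophage nuclei Mamdc2 was at 28.5 CPM or more in WT-CD and at 5.87 CPM or less in the mutant groups, while smooth muscle-like nuclei stayed between 570 and 873 CPM.

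In pericyte-like nuclei, the mural cells of capillaries, Mamdc2 was lowest under empagliflozin. Its level was 169 and 151 CPM in WT-CD, 119 and 125 CPM in R403Q-CD, then 48.0 and 78.0 CPM in R403Q-EMPA. The 3 groups did not overlap, with R403Q-EMPA lowest, but the share of all genes without overlap was not computed in these nuclei. The log2 fold change was -0.37 ± 0.170 for R403Q-CD against WT-CD, -0.99 ± 0.198 for R403Q-EMPA against R403Q-CD and -1.36 ± 0.195 for R403Q-EMPA against WT-CD. These values too were in view when the gene was chosen. The last 2 passed the adjusted p of 0.05, beside 0.16% and 0.681% of the 11889 genes tested there that were called lower. In lymphoid-like nuclei Mamdc2 had 5 and 6 UMIs in the WT-CD libraries and none in the mutant libraries, where 0 of 52 to 105 nuclei allows a share of nuclei with a UMI of up to 2.86% to 5.77%. That limit concerns detection at this depth and not expression, and no difference is read from lymphoid-like nuclei.

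2610203C22Rik, a long noncoding RNA by the RefSeq annotation, was level between WT-CD and R403Q-CD and lower under empagliflozin. It stood at 261 and 264 CPM in WT-CD, 306 and 258 CPM in R403Q-CD, then 129 and 113 CPM in R403Q-EMPA. Both R403Q-EMPA libraries lay below all others. On the log2 scale the differences were 0.07 ± 0.158 for R403Q-CD against WT-CD, -1.23 ± 0.170 for R403Q-EMPA against R403Q-CD, and -1.16 ± 0.171 for R403Q-EMPA against WT-CD.

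The lower level of 2610203C22Rik came with fewer positive nuclei. It was found in 42.3% and 51.9% of gated nuclei in WT-CD, 53.5% and 50.9% in R403Q-CD, then 28.0% and 19.3% in R403Q-EMPA. At 1000 UMIs per nucleus the shares were 20.5% and 22.2%, 24.4% and 22.5%, and 12.0% and 10.8%. Cardiomyocyte-like nuclei gave 0.687% to 0.977% at that depth. A second site of this RNA was the blood vessel: endothelial-like nuclei held 164 to 256 CPM, and gated macrophage nuclei contributed 15.5% of all its UMIs.

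In endothelial-like nuclei 2610203C22Rik was 221 and 226 CPM in WT-CD, 256 and 200 CPM in R403Q-CD, then 164 and 186 CPM in R403Q-EMPA. R403Q-EMPA was again the lowest group, at a log2 fold change of -0.42 ± 0.161 against R403Q-CD. Fibroblast-like nuclei gave 27.7 and 27.2 CPM in R403Q-CD and 18.4 and 18.0 CPM in R403Q-EMPA, a log2 fold change of -0.64 ± 0.167. Neither was called, beside 0.057% of endothelial-like and 0.252% of fibroblast-like genes called lower, and the difference between cell classes was not tested.

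For each of these transcripts, genes were ranked by how alike their distribution was over 12 cell classes. The measure was the Pearson correlation of log2(CPM + 1), among 9631 genes above 10 CPM in gated nuclei. A ranking always returns a closest set, so that each has one is no result. For Mamdc2 the closest were Stk38l (r = 0.86), Prpsap1 (0.85), Flna (0.84), Sort1 (0.82) and Gpc6 (0.82). For 2610203C22Rik they were Nckipsd (0.92), Atp6v1b2 (0.92), Ppp4r1 (0.91), Oasl1 (0.89) and Tbc1d22a (0.88). The classes share the same libraries and differ in depth, and gated macrophage nuclei and the myeloid-like nuclei outside the gate count as separate classes. Between Mamdc2 and other members r was near 0 (-0.09 with F13a1, -0.02 with Timd4), whereas 2610203C22Rik gave 0.70 with Cd163 and 0.70 with Timd4.

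Timd4 encodes TIM-4, a receptor for phosphatidylserine with which macrophages take up apoptotic cells. Its level was 129 and 121 CPM in WT-CD, 88.3 and 83.1 CPM in R403Q-CD, then 25.5 and 49.9 CPM in R403Q-EMPA. The groups did not overlap and followed the order WT-CD, R403Q-CD, R403Q-EMPA. Fitted log2 fold changes were -0.57 ± 0.234 for R403Q-CD against WT-CD, -1.31 ± 0.277 for R403Q-EMPA against R403Q-CD, and -1.88 ± 0.272 for R403Q-EMPA against WT-CD.

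The share of Timd4-positive nuclei was 20.2% and 22.8% in the WT-CD libraries, 18.8% and 19.6% in R403Q-CD, then 6.02% and 9.09% in R403Q-EMPA. Thinned to 1000 UMIs it was 10.7% and 10.4%, 6.67% and 7.41%, and 2.93% and 2.69%. The order of the groups was the same at both depths. Timd4 was close to private to macrophages, with 89.8% of its UMIs in gated nuclei and 1 positive nucleus among all thinned cardiomyocyte-like nuclei.

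Lyve1, a hyaluronan receptor of lymphatic vessels and of perivascular macrophages, differed less. It stood at 706 and 598 CPM in WT-CD, 466 and 516 CPM in R403Q-CD, then 533 and 713 CPM in R403Q-EMPA. In CPM, R403Q-CD lay below both other groups, and R403Q-EMPA overlapped WT-CD. The share of Lyve1-positive nuclei, 51.8% and 60.1% in the WT-CD libraries, 49.9% and 53.7% for R403Q-CD and 46.5% and 54.5% for R403Q-EMPA, overlapped between all groups and did not put R403Q-CD lowest. The log2 fold change was -0.44 ± 0.184 for R403Q-CD against WT-CD and 0.32 ± 0.185 for R403Q-EMPA against R403Q-CD.

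Gated nuclei in the lymphatic endothelial-like cluster held 485 of the 4716 Lyve1 UMIs of the gate. With gated nuclei of the myeloid-like clusters alone, Lyve1 was 709 and 629 CPM in WT-CD, 460 and 488 CPM in R403Q-CD, then 538 and 697 CPM in R403Q-EMPA, and the log2 fold change for R403Q-CD against WT-CD was -0.52. The separation of R403Q-CD from both other groups was as large without the lymphatic nuclei. In the lymphatic endothelial-like class itself Lyve1 ranged from 698 to 1490 CPM, and the gate held 43.4% of its UMIs overall.

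Folr2, the folate receptor beta, stood at 96.7 and 64.5 CPM in WT-CD, 73.8 and 70.3 CPM in R403Q-CD, then 66.5 and 104 CPM in R403Q-EMPA. All groups overlapped, and the log2 fold changes lay between -0.20 and 0.18. A UMI of Folr2 was found in 18.8% to 21.9% of gated nuclei. Cd163, the receptor that clears haemoglobin bound to haptoglobin, was 796 and 833 CPM in WT-CD, 604 and 875 CPM in R403Q-CD, then 723 and 1031 CPM in R403Q-EMPA. The replicates of each mutant group differed by more than the group means, and the log2 fold changes lay between -0.17 and 0.23. A UMI of Cd163 was found in 53.5% and 51.3% of gated nuclei in the WT-CD libraries, above the 43.5% and 47.7% of R403Q-CD and the 37.3% and 47.3% of R403Q-EMPA. At 1000 UMIs per nucleus the shares were 40.8% and 38.3%, 30.1% and 31.9%, and 26.8% and 38.8%, and WT-CD overlapped R403Q-EMPA.

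F13a1 encodes the A subunit of coagulation factor XIII, a transglutaminase that crosslinks fibrin and matrix and is made by macrophages. It stood at 7217 and 9489 CPM in WT-CD, 8353 and 7349 CPM in R403Q-CD, then 6463 and 7616 CPM in R403Q-EMPA. The groups overlapped, at log2 fold changes from -0.30 to -0.12. It was detected in 79.3% to 88.3% of gated nuclei, and 92.6% of its UMIs were in the gate. Cd163 likewise had 91.0% of its UMIs there.

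Ccr2, the receptor for the monocyte chemokine CCL2, marks macrophages of monocyte origin. Its level was 30.7 and 36.9 CPM in WT-CD, 46.7 and 32.4 CPM in R403Q-CD, then 99.4 and 13.2 CPM in R403Q-EMPA. The R403Q-EMPA libraries held both the highest and the lowest value of the series, with 148 UMIs in 53 nuclei in replicate 1 and 9 UMIs in 4 nuclei in replicate 2. The log2 fold change for R403Q-EMPA against R403Q-CD was 0.63 ± 0.522, 1.28 without R403Q-EMPA replicate 2 and -1.57 without R403Q-EMPA replicate 1.

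Over all kept nuclei Ccr2 had 552 UMIs, of which 376 were in the gate, 69 in myeloid-like nuclei outside it and 60 in lymphoid-like nuclei. The small cluster with Ccr2 among its leading genes gave 175 of the 376 UMIs in the gate, at 390 to 829 CPM in its 3 to 18 gated nuclei per library. The large cluster held 199 UMIs, at 74.2 CPM in R403Q-EMPA replicate 1 and 3.27 CPM in R403Q-EMPA replicate 2. In the small cluster Lyve1 and Timd4 had no UMI, and Folr2 had 1. Outside macrophages, lymphoid-like nuclei held 21.0 to 77.5 CPM of Ccr2.

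**Figure D2:**
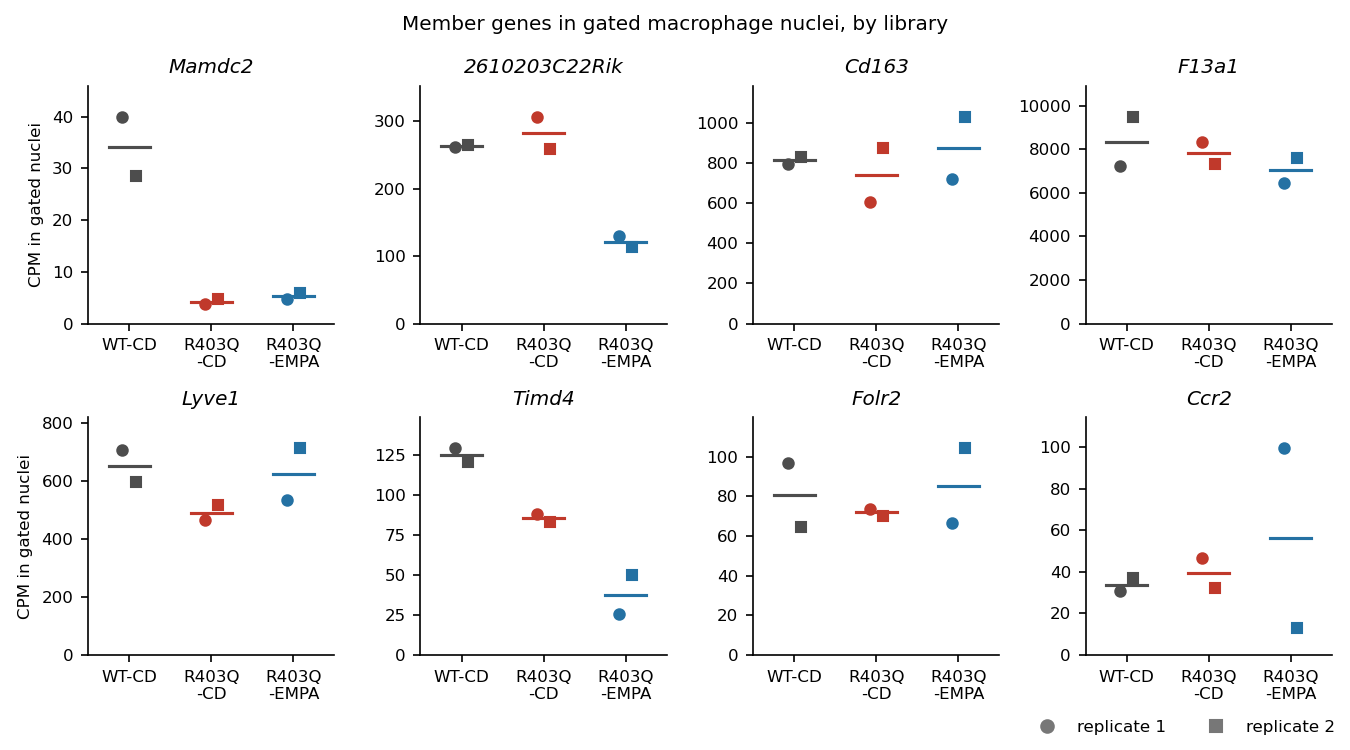
Level of each gene in gated macrophage nuclei in CPM, with 1 point per library (circles replicate 1, squares replicate 2) and a line at the mean of the 2 libraries of a group. Mamdc2 was above 28 CPM in the WT-CD libraries alone, 2610203C22Rik and Timd4 were lowest in R403Q-EMPA, and Ccr2 ran from 13.2 to 99.4 CPM within R403Q-EMPA.

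In the fit over all 11389 genes tested in gated nuclei, the filter on low counts kept the 8 genes, but Mamdc2 only through the WT-CD libraries, where it was high. In a fit of both mutant groups alone the filter removed it. Its value against WT-CD therefore could only be tested because WT-CD was high. No member was called at an adjusted p of 0.05 in R403Q-CD against WT-CD, where 0% of all genes were called and 3.9% had an unadjusted p under 0.05 (edgeR quasi-likelihood test). The groups did not overlap for 3 of 8 members, Mamdc2, Lyve1 and Timd4, all lower in R403Q-CD, beside 16.1% of all genes that were lower without overlap and 16.1% that were higher. In R403Q-EMPA against R403Q-CD no member was called, beside 0.00878% of all genes (6.03% at an unadjusted p under 0.05), and 2610203C22Rik and Timd4 were lower and Lyve1 higher without overlap, beside 18.8% and 18.6%. In R403Q-EMPA against WT-CD, Mamdc2, 2610203C22Rik and Timd4 were called lower, 3 of 8, beside 0.132% of all genes called lower, 0.263% called in all and 9.93% at an unadjusted p under 0.05 (edgeR quasi-likelihood test). They were also the 3 whose groups did not overlap, beside 20% of all genes lower and 18.4% higher without overlap. All 3 calls were lost without WT-CD replicate 1, without WT-CD replicate 2 or without R403Q-EMPA replicate 1, with log2 fold changes from -2.96 to -2.55 for Mamdc2, -1.23 to -1.11 for 2610203C22Rik and -1.89 to -1.34 for Timd4, and that of 2610203C22Rik also without R403Q-EMPA replicate 2, at -1.10. These comparisons share their libraries, and the members had been chosen on the same values, so nothing is read from their counts against those of all genes.

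**Figure D3:**
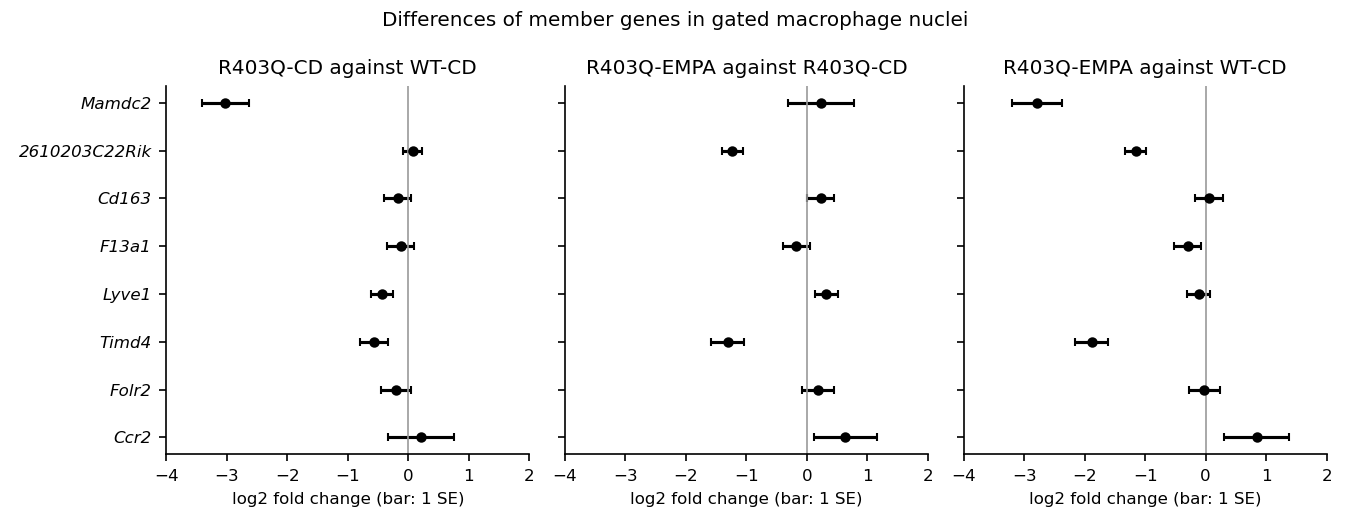
Log2 fold change of each gene in gated macrophage nuclei with 1 SE on either side, for the 3 comparisons of 2 libraries against 2. Mamdc2 lay at -3.02 and -2.79 against WT-CD and near 0 between the mutant groups, while 2610203C22Rik and Timd4 lay at -1.23 and -1.31 in R403Q-EMPA against R403Q-CD.

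Each library was split into nuclei with and without a UMI of 1 gene, and the remaining genes were compared as CPM, which is a description of nuclei from the same 6 libraries and not a test. In the nuclei with Timd4, 24 to 130 per library, Lyve1 averaged 1098 CPM over the libraries against 480 CPM in the nuclei without, and was higher in 6 of 6 libraries. Folr2 averaged 131 against 65.1 CPM and F13a1 12069 against 6710 CPM, both higher in 6 of 6. Cd163 was higher in 5 of 6, at 1112 against 728 CPM. Ccr2 was lower in 6 of 6, at 8.32 against 50.1 CPM, and so were the summed antigen presentation genes, at 880 against 2430 CPM. Lymphatic endothelial markers were also lower in 6 of 6, at 38.1 against 989 CPM, as the nuclei without Timd4 include the gated lymphatic endothelial-like nuclei. The part of those nuclei in these differences was not tested.

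Nuclei with Ccr2 showed the reverse for Lyve1, Folr2, F13a1, Cd163 and the antigen presentation genes. In these 138 nuclei the antigen presentation genes, among them Cd74 and Cd86, summed to a mean of 7646 CPM against 1831 CPM in the nuclei without, higher in 6 of 6 libraries. Monocyte and recruited macrophage genes summed to 2226 against 890 CPM, also higher in 6 of 6. Lyve1 was 60.1 against 618 CPM, Folr2 15.3 against 82.5 CPM, Cd163 229 against 841 CPM and F13a1 3188 against 7986 CPM, each lower in 6 of 6. Lymphatic endothelial markers were lower with Ccr2 in 6 of 6 too, at 43.0 against 848 CPM. The gated lymphatic endothelial-like nuclei, with their Lyve1, thus lay among the nuclei without Ccr2. Median depth was 1980.5 to 3840.5 UMIs with Ccr2 and 2489.5 to 4061.5 without, and in R403Q-EMPA replicate 2 the comparison rests on 4 nuclei.

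**Figure D4:**
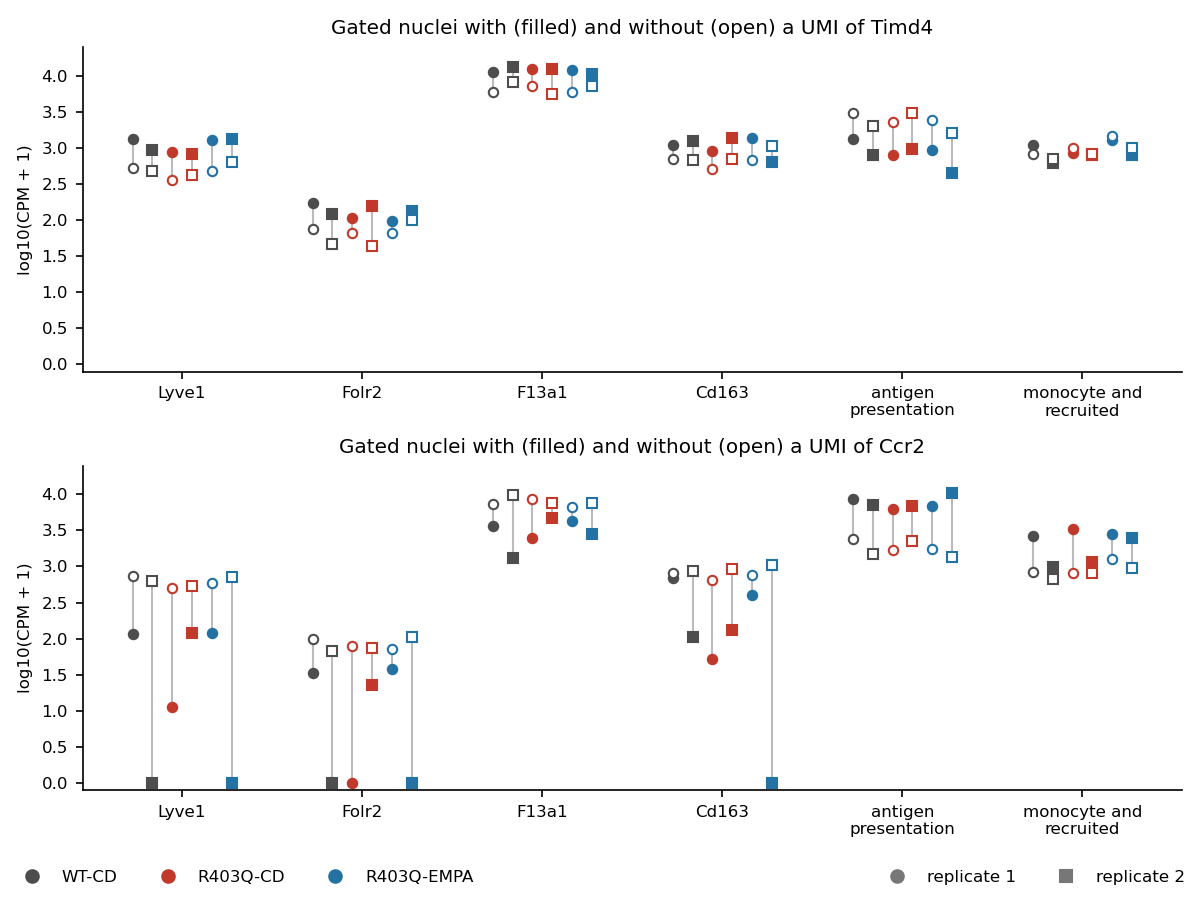
Summed level, as log10(CPM + 1), in gated nuclei with (filled) and without (open) a UMI of Timd4 (top) or Ccr2 (bottom), 1 pair of points per library, for 4 genes and 2 gene lists. Lyve1, Folr2 and F13a1 were higher with Timd4 and lower with Ccr2 in 6 of 6 libraries, and antigen presentation genes went the opposite way in 6 of 6.

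Nuclei with 2610203C22Rik held more F13a1, at 8837 against 6733 CPM, and more Timd4, at 99.3 against 70.8 CPM, in 6 of 6 libraries. Lymphatic endothelial markers were lower in these nuclei in 6 of 6 libraries, at 291 against 1297 CPM. The nuclei without 2610203C22Rik thus held more of the gated lymphatic endothelial-like nuclei, which had no Timd4 UMI. Median depth was 2550 to 4298 UMIs with 2610203C22Rik and 2322 to 3710 without. The part of both in these differences was not tested. Mamdc2 did not follow this pattern, being higher with Timd4 in 4 of 6 libraries and lower with 2610203C22Rik in 6 of 6, on 57 positive nuclei in all. Split by Mamdc2 instead, 2610203C22Rik was higher in the nuclei with Mamdc2 in 3 of 6 libraries, at 205 against 222 CPM.

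Upstream sequences of Timd4 and Folr2, each higher in nuclei with the other in 6 of 6 libraries, and of Ccr2, lower in nuclei with either in 6 of 6, are shown as the 250 bases before the start in RefSeq GRCm38.p6, 5′ to 3′ on the gene's strand. The counts were made on GRCm39, so these coordinates belong to the older build alone. RefSeq entries were matched for 5 of 8 genes, and Mamdc2, 2610203C22Rik and Lyve1 are named only. Capitals mark the letters GGAAGT, the core bound by ETS factors such as PU.1, and TGCTGA, a core of Maf sites, and the ETS-IRF composite element, which joins an ETS core to an interferon regulatory factor site and can overlap GGAAGT, on either strand.
Timd4, chr11:46810549-46810798, plus strand: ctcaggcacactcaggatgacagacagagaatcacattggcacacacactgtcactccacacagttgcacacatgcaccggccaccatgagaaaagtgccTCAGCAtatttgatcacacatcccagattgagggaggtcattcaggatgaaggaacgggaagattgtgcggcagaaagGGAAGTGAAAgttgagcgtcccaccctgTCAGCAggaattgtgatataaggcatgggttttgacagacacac
Folr2, chr7:101857191-101857440, minus strand: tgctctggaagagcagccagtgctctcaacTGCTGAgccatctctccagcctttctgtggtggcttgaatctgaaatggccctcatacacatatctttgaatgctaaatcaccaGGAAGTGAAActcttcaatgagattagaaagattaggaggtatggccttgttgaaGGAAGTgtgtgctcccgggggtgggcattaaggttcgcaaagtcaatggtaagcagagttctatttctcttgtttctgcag
Ccr2, chr9:124101933-124102182, plus strand: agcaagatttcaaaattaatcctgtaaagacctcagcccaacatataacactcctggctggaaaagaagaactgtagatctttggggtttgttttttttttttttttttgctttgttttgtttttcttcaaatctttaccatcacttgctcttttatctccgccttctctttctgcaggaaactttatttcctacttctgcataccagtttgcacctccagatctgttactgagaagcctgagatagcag

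The ETS-IRF composite element occurred 1 time upstream of Timd4 and 1 time upstream of Folr2, and in 0.594% of 32851 RefSeq promoter windows of the same length. GGAAGT was found 1 time in Timd4 and 2 times in Folr2 (19.7% of windows held it), and TGCTGA 2 times in Timd4 and 1 time in Folr2 (16.1%). Ccr2 and Cd163 held none of the 3. A second Folr2 start held 1 TGCTGA, and of the starts of F13a1 the second held 1 GGAAGT and the first none. A match is a string of letters and not evidence of binding.

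Other macrophage genes were read in the same fit from 17 lists. CPM values of single list genes are scaled between libraries by edgeR's TMM factors, whereas sums over a list are plain CPM. Of 20 further resident macrophage genes tested none was called in any comparison, and the median log2 fold change was -0.24 for R403Q-CD against WT-CD, -0.02 for R403Q-EMPA against R403Q-CD and -0.29 for R403Q-EMPA against WT-CD, beside medians over all genes of -0.01, 0.00 and -0.01. The unadjusted p (edgeR quasi-likelihood test) was under 0.05 for 3, 2 and 5 of the 20, beside 3.9%, 6.03% and 9.93% of all genes. Rbpj, a Notch pathway transcription factor and the list's most abundant gene, stood at 4724 and 6345 CPM in WT-CD and 2467 to 4336 CPM in the mutant libraries, a log2 fold change of -0.60 ± 0.265 for R403Q-CD against WT-CD. Slc9a9 was 3254 to 4742 CPM with no order by group.

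Of 18 macrophage identity genes none was called. Their median log2 fold change was -0.09, 0.19 and 0.22 in the same 3 comparisons, and 14 of 18 were positive in R403Q-EMPA against R403Q-CD. The monocyte and recruited macrophage list had 11 of 18 genes tested and none called, with medians of 0.31, 0.26 and 0.66. Its most abundant genes were Lyz2, at 842 and 607 CPM in R403Q-EMPA and 359 to 590 CPM elsewhere, and the integrin Itga4, at 365 and 323 CPM in R403Q-EMPA and 197 to 243 CPM elsewhere (adjusted p = 0.423 and 0.159 against WT-CD, edgeR). Antigen presentation genes, 10 of 11 tested, had none called and medians of -0.04, -0.16 and -0.19.

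Scavenger and efferocytosis genes (12 of 15 tested), iron and haem genes (10 of 10), folate and one-carbon genes (6 of 10), the macrophage growth factor and chemokine axis (12 of 14) and transglutaminase and coagulation genes (5 of 11) had none called in any comparison, with medians between -0.27 and 0.22. DESeq2 on the same counts called 1 gene of these 9 lists, Wwp1 of the resident list, lower in R403Q-EMPA against WT-CD, and without the filter on low counts edgeR called more, 5 of the resident list among them. In gated nuclei of the myeloid-like clusters alone, a choice made after seeing the data, Cd36 and Slc11a1 were called lower in R403Q-EMPA against WT-CD.

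Among the macrophage lists, calls in this fit were made in the cell cycle genes. Of 7 tested, Mki67 and Cenpf, genes of dividing cells, were higher in R403Q-EMPA against WT-CD. Mki67 stood at 23.2 and 31.1 CPM in WT-CD, 37.8 and 74.6 CPM in R403Q-CD, then 111 and 81.8 CPM in R403Q-EMPA. The groups did not overlap in this gene, and the log2 fold change of R403Q-EMPA against WT-CD was 1.88 ± 0.329 (edgeR quasi-likelihood adjusted p = 0.0450). Cenpf rose by 2.79 ± 0.397 on the log2 scale (adjusted p = 0.0277). Leaving out either WT-CD library or either R403Q-EMPA library ended both calls, as did a gate without Mrc1 and the myeloid-like clusters in place of the gate. The summed cell cycle genes of R403Q-EMPA replicate 2 were 262 CPM in all gated nuclei and 192 CPM in those of the myeloid-like clusters, below the 273 CPM of R403Q-CD replicate 2 there, and 1 gated nucleus of that library fell in an endothelial-like cluster led by Mki67.

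Genes of other cell types in the gate were summed per library. Fibroblast genes stood at 1036 and 462 CPM in WT-CD, 408 and 569 CPM in R403Q-CD, then 433 and 383 CPM in R403Q-EMPA, and 1 of these 6 genes, Abca8a, was called lower in R403Q-EMPA against WT-CD (log2 fold change -2.13 ± 0.228, edgeR adjusted p = 0.00630), a call lost without WT-CD replicate 1, with a gate at 3 UMIs or without Mrc1, and in the myeloid-like clusters. Its 172 and 153 CPM in WT-CD stood above the 28.3 to 80.0 CPM of the mutant libraries, the same split of libraries as for Mamdc2, and its part in that result was not tested. Lymphatic endothelial markers summed to 581 to 1204 CPM, and to 22.5 to 45.5 CPM without gated nuclei outside the myeloid-like clusters. Without those nuclei Mamdc2 was 43.5 and 31.8 CPM in WT-CD and 4.08 to 6.45 CPM in the mutant libraries, and fibroblast genes were 812 and 312 CPM in WT-CD and 320 to 347 CPM in the mutant libraries.

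In the remaining lists of other cell types, neutrophil, dendritic, lymphocyte, lymphatic endothelial, endothelial and cardiomyocyte, no gene was called. Lymphocyte genes summed to 1300 and 1391 CPM in both WT-CD libraries, 1188 and 1043 CPM in R403Q-CD and 469 and 1034 CPM in R403Q-EMPA. These sums did not overlap and had the order of the groups seen for Timd4, but the single genes did not all share it. Only 3 of the 8 lymphocyte genes were tested, and in each comparison 2 of these 3 had a positive log2 fold change. The median of the 3 was 0.10 for R403Q-CD and 1.01 for R403Q-EMPA, each against WT-CD, and 0.91 between the mutant groups. The negative value was -0.31, -0.97 and -0.66 in that order. Neutrophil genes stood at 82.1 and 83.3 CPM in R403Q-EMPA and at 51.1 to 57.9 CPM in the other libraries, with 2 to 4 of 5 genes at 0. Cardiomyocyte genes were at 1236 and 1260 CPM in R403Q-EMPA and at 654 to 1190 CPM elsewhere. Dendritic genes (71.8 to 93.3 CPM) and endothelial genes (368 to 555 CPM) overlapped between WT-CD and R403Q-EMPA. Outside these lists, and picked after their values were seen, 8 of the 15 genes called higher in R403Q-EMPA against WT-CD encode heat-shock proteins or their cochaperones: Hsph1, Hspa1a, Hspa1b, Dnaja1, Hspa8, Hspa4l, Chordc1 and Ahsa2. Hspa1a had the highest log2 fold change among them, 7.66 ± 1.12 (edgeR adjusted p = 0.0324). Hsph1 (2.58 ± 0.243, edgeR adjusted p = 0.00331) was also the 1 gene called in R403Q-EMPA against R403Q-CD, at 2.06 ± 0.229 (edgeR adjusted p = 0.0180). A fit of only those groups called no gene. The circadian clock genes Dbp (-1.77 ± 0.302, adjusted p = 0.0428) and Nr1d2 (-1.20 ± 0.189, adjusted p = 0.0348) were called lower against WT-CD. The cardiomyocyte natriuretic peptide gene Nppa was called higher in R403Q-EMPA against WT-CD (log2 fold change 3.49 ± 0.527, edgeR adjusted p = 0.0298), and Mdga2, a leading gene of a pericyte-like cluster, was called lower (-5.15 ± 0.809, adjusted p = 0.0348). Most calls of R403Q-EMPA against WT-CD were lost without WT-CD replicate 1, without WT-CD replicate 2 or without R403Q-EMPA replicate 1. The part of these genes and other cell types in the differences of Mamdc2, 2610203C22Rik and Timd4 was not tested.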

How the data were processed

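Gene by nucleus matrices of UMI counts were deposited by the authors for 6 left ventricle libraries, 2 per group, and per the submitters' processing notes they were made with Cell Ranger 8.0.1 on GRCm39. The deposited counts are not normalised. Nuclei with at least 500 UMIs, 300 genes and at most 5% mitochondrial UMIs were kept, and predicted doublets (3.68 to 6.45% per library) were removed, which left 46005 of 69249 barcodes. Nuclei were clustered with scanpy 1.11.5 (2000 variable genes, 30 principal components, Leiden resolution 1.0) and clusters were named from fixed markers. UMIs of gated nuclei were summed per library and fitted with edgeR 4.0.16 (TMM, filterByExpr, quasi-likelihood test, all 6 libraries, 3 residual degrees of freedom, Benjamini-Hochberg adjustment over all genes, called at 0.05). DESeq2 1.42.0 was an alternative, and the fit was tested on simulated data. The genes and lists were chosen with earlier results of these data known. Named from the lists were the genes called, and otherwise at most 2 with the highest mean CPM.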

Additional observations from a re-analysis of the deposited data

Results flagged for a closer look

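2610203C22Rik had fold changes of opposite sign in 2 cell classes. In endocardial-like nuclei it stood at 9.70 and 5.91 CPM in WT-CD, 6.27 and 4.42 CPM in R403Q-CD, and 17.1 and 17.7 CPM in R403Q-EMPA, so both R403Q-EMPA libraries lay above the others, whereas in gated macrophage nuclei both lay below. The log2 fold change in endocardial-like nuclei was 1.73 ± 0.384 for R403Q-EMPA against R403Q-CD, beside -1.23 in gated nuclei, and 1.13 ± 0.348 for R403Q-EMPA against WT-CD, beside -1.16. Neither endocardial-like value passed the threshold (edgeR adjusted p = 0.0637 and 0.137), nor did the gated value against R403Q-CD (0.0523). The endocardial-like values rest on 124 UMIs over the 6 libraries, and cardiomyocyte-like nuclei stood at 9.85 to 16.2 CPM. The part of background RNA in the endocardial-like values was not tested. The difference between the cell classes was not tested.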

How the results depend on the processing

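No paired analysis was possible because the replicate numbers follow the order of deposit and pair no samples. The number of genes called in gated nuclei was 0 for R403Q-CD against WT-CD, and 54 without the filter on low counts, 1 with a gate without Mrc1, 1 in the myeloid-like clusters and 1 in gated nuclei of those clusters, the last an alternative chosen after seeing the data. For R403Q-EMPA against R403Q-CD it was 1, and in the same order of settings 123, 3, 10 and 17, with 16 by DESeq2, 5 with a gate at 3 UMIs and 0 from a fit of only these groups. For R403Q-EMPA against WT-CD it was 30, and 293 without the filter, 56 by DESeq2, 51 in the myeloid-like clusters and 78 in gated nuclei of those clusters. Leaving out 1 library at a time gave 0 to 1, 0 to 13 and 0 to 35 calls, with 0 without WT-CD replicate 1, 4 without WT-CD replicate 2 and 2 without R403Q-EMPA replicate 1 in the last comparison. The share of gated nuclei in R403Q-CD minus that in WT-CD was -0.00754 percentage points, and 0.139 with a gate without Mrc1, 0.206 in the myeloid-like clusters, 0.0516 in their gated nuclei and -1.13 without the mitochondrial filter. The last setting also took R403Q-EMPA minus R403Q-CD from -0.772 to -0.347 and R403Q-EMPA minus WT-CD from -0.779 to -1.48. Over libraries left out, this difference ran from -1.31 to 1.30, that of R403Q-EMPA minus R403Q-CD from -1.33 to -0.218, and that of R403Q-EMPA minus WT-CD from -2.09 to 0.527. The cause was not tested. Of 383 alternative log2 fold changes of the 8 genes, 358 lay within 1 SD of the replicates and 361 kept their sign. Mamdc2 in R403Q-CD against WT-CD lay between -3.20 and -2.79 over libraries left out and was called without the filter, with a gate without Mrc1, and in both myeloid-like sets. 2610203C22Rik in R403Q-EMPA against R403Q-CD was called in those settings, with a gate at 3 UMIs and by DESeq2, and Timd4 without the filter and without R403Q-EMPA replicate 2. Ccr2 in R403Q-EMPA against WT-CD was -1.35 without R403Q-EMPA replicate 1 and 1.49 without replicate 2. With 4 to 7 UMIs of Mamdc2 in each mutant library, depth limits its values there.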
